A study of Gasterosteus aculeatus with 79 samples.

Results

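MYH3 (ENSGACG00000014475, annotated as myosin heavy chain 3, skeletal muscle, embryonic) and mylpfb (ENSGACG00000007182, annotated as the fast skeletal muscle phosphorylatable myosin light chain b) are 2 of the 22456 gene rows in the count files of a stickleback brain study. In the Ensembl release 75 annotation, MYH3 lies on the plus strand of linkage group XI (positions 15411653 to 15424512) and mylpfb lies on the minus strand of linkage group V (positions 9421587 to 9424849). Both rows were chosen by measured values. The contrast that chose MYH3 is not recorded, and earlier results of these data gave a change of it in diencephalon at late hatching, so all its diencephalon contrasts between stages and controls are taken as used in the choice. Mylpfb was selected with a few high single libraries in view. The diencephalon levels of MYH3 by stage, the high mylpfb libraries and the relation of mylpfb to other muscle genes are therefore given as a description, without a test. Tests of mylpfb by stage, between the regions and with MYH3 are printed. The high libraries enter them, so their p-values are not independent of the choice. The diencephalon levels of MYH3 enter its tests between regions, across libraries and by time of day. Those p-values are not independent of the choice either.

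The study followed adult male three-spined sticklebacks (Gasterosteus aculeatus), a fish in which fathers care for the eggs and fry alone. Wild-caught males of a freshwater population formed 8 groups: males with a nest that had not mated, males with eggs 4 days after fertilization, males at early, mid and late hatching of the clutch on day 5, and mature control males without a nest. Each group had 5 males, and each stage had controls taken at its own clock time, which was 9 a.m. for nest, eggs and early, 1 p.m. for mid and 5 p.m. for late. Heads were frozen before diencephalon and telencephalon were dissected out of them, and each of the 79 libraries (39 of diencephalon and 40 of telencephalon, from 40 males) came from 1 region of 1 male. For the 1 p.m. controls, 4 diencephalon libraries were analysed here.

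A muscle myosin is built of heavy chains, which carry the motor and form the thick filament, and of light chains, which sit on the neck of the motor. The regulatory light chain of fast muscle, the family to which mylpfb belongs, is phosphorylated during contraction. In mammals MYH3 is the heavy chain of embryonic skeletal muscle. The annotation names come from related genes in other species, and heavy chain genes of fish resemble one another. Reads shared with a close relative could therefore have been lost in counting.

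A library held between 15839679 and 37371744 reads on genes, and levels are given in CPM, the reads on a gene scaled to a common total of reads on genes. The files held no identical pair of libraries. Brain identity could be checked only with mbpb and plp1a, which encode myelin proteins. Their sum was between 296 and 646 CPM in every diencephalon library and between 116 and 404 CPM in every telencephalon library. Sequencing lanes followed the groups: every control library and both libraries of late male 65 were run on multiple lanes by the study's list of libraries and the other libraries on a single lane, so that lane and stage cannot be told apart.

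Mylpfb was at or near 0 in most libraries of both regions. It had 0 reads in 19 of 39 diencephalon libraries and in 20 of 40 telencephalon libraries. Another 9 and 10 libraries, respectively, held 1 to 3 reads, at or below the floor of 3 counts that a count of 0 still allows. The floor covers counting error only, whereas the SDs and SEs given below hold the spread between libraries. The median library held 0.0424 CPM in diencephalon and 0.0230 CPM in telencephalon.

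One library held most of the reads. The telencephalon of control 1 p.m. male 96 had 957 mylpfb reads (57.7 CPM), which was 87.9% of the 1089 reads of the gene in all telencephalon libraries. The other 4 telencephalon libraries of that group had 0, 0, 0 and 2 reads. The diencephalon library of the same male had 8 reads (0.428 CPM). That was also the highest of its group, where the next library had 0.0424 CPM, but far below the telencephalon of the male.

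A further 4 libraries reached at least 10 times the level of 3 counts. The diencephalon of mid male 80 had 53 reads (2.72 CPM), and its telencephalon had 8. The telencephalon of control 5 p.m. male 75 had 49 reads (2.53 CPM), and its diencephalon had 5. In both males the lower library was still the highest of its group in that region. The diencephalon of early male 29 had 35 reads (1.79 CPM) and that of late male 15 had 32 (1.58 CPM), while the telencephalon of both males had 0. The telencephalon of control 9 a.m. male 74, with 21 reads (1.01 CPM), was the only other library at 1 CPM or more.

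**Figure D1:**
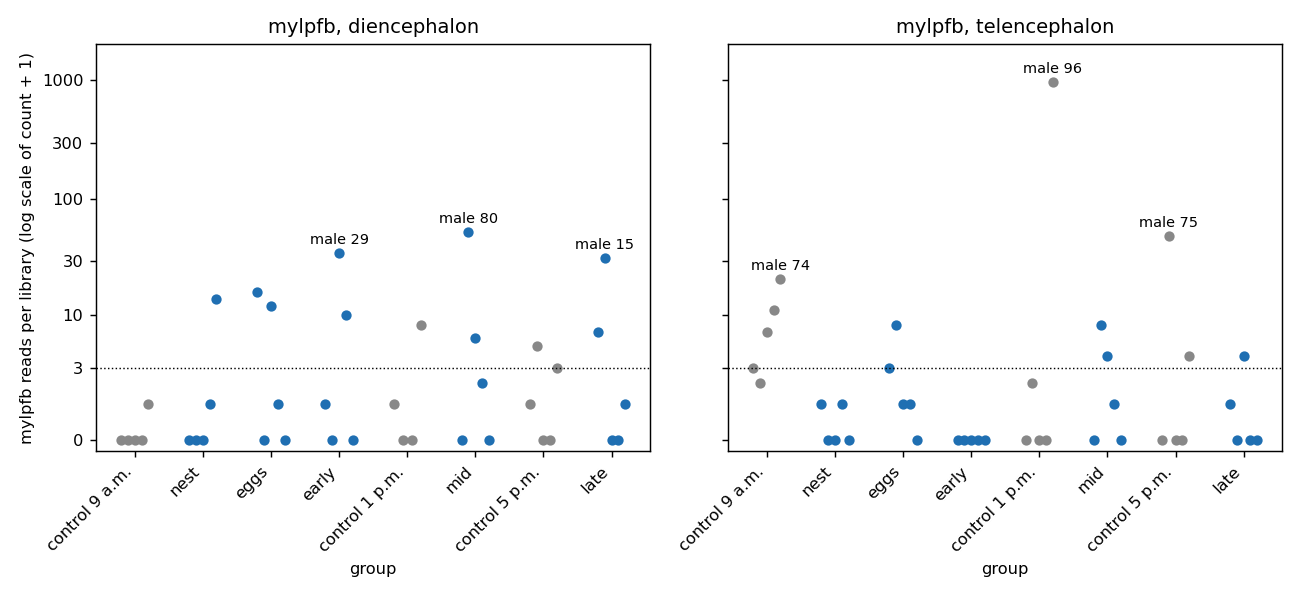
Reads on mylpfb in each library, by group, in diencephalon (left) and telencephalon (right), on a log scale of count + 1. Each point is 1 library, control groups are grey, the dotted line marks 3 reads and libraries with 21 or more reads carry the number of the male. Most points lie at or under the line, and the telencephalon of male 96 stands apart at 957 reads.

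No difference in mylpfb between the regions passed. Over the 39 males with both libraries, it was higher in diencephalon in 15 males, lower in 13 and equal in 11. The mean difference of log2(CPM + 0.5), diencephalon minus telencephalon and paired by male, was -0.06 ± 1.28 (SD; p = 0.821, two-sided permutation test with sign changes). The paired values of a male had no relation that passed (r = 0.12, permutation p = 0.380, adjusted over 8 relations 0.435; rho = 0.16, permutation p = 0.336, adjusted 0.523). Without males 29 and 80, r was 0.17. Within single-lane libraries r was 0.30 (n = 24), and within multiple-lane libraries it was 0.91 (n = 15), where male 96 was the highest in both regions. The high library of this male was known when mylpfb was chosen, so no test is given for that value. Without male 96, r over the 38 other males was 0.04.

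By stage, mylpfb was lower than in its 9 a.m. controls at nest and early in telencephalon, and no other stage comparison passed. All 5 control 9 a.m. telencephalon libraries held reads (2, 3, 7, 11 and 21), whereas the nest libraries held 0, 0, 0, 1 and 1 and all 5 early libraries held 0. The read numbers did not overlap, although the 2 control libraries with 2 and 3 reads lie at or below the floor of 3 counts and are not separated from 0 or 1 read beyond counting error. Both stages were lower by an exact permutation test on log2(CPM + 0.5), two-sided and adjusted over 10 comparisons. The difference was -0.80 for nest and -0.85 for early (exact p = 0.00794 and adjusted p = 0.0397 for each), and 0.00794 is the smallest p that 5 libraries against 5 allow. These p-values are not independent of the choice of the gene. The controls include the library of male 74 (21 reads), 1 of the high libraries known when mylpfb was chosen. In all, 1.94% of the 18397 genes tested in telencephalon had every nest library below every control library, and 0.462% had every early library below. The stages share these 5 control libraries, so they are not separate evidence. Each passed the adjustment over 10 comparisons only because the other had the same p. With that smallest p alone, neither would have passed. All of these controls were run on multiple lanes and all nest and early libraries on a single lane. Over all telencephalon libraries the mylpfb median was 0.110 CPM on multiple lanes and 0 on a single lane. The part of the lane in this difference was not tested and cannot be told apart from stage. Leaving out any 1 nest or early male raised the adjusted p to 0.119. All early libraries held 0 reads, so leaving out 1 of them cannot change the difference. The rise in p there comes from the unequal group sizes and does not measure dependence on 1 male. Leaving out any 1 control male kept it at 0.0397. That outcome was fixed, because the remaining controls still lie above every nest and early library. It does not measure dependence on 1 control male either. Egg males (0, 1, 1, 3 and 8 reads) differed from the same controls by -0.58 (exact p = 0.0635, adjusted p = 0.212).

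Muscle genes other than mylpfb were also high in some of those control 9 a.m. libraries. The summed level of the 11 muscle genes described below was between 14.1 and 233 CPM in the control 9 a.m. telencephalon, between 11.1 and 22.9 CPM in the nest group and between 9.82 and 21.7 CPM in the early group. The part of this in the mylpfb difference was not tested.

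In diencephalon the same control group held 1 read of mylpfb in all 5 libraries together. The nest libraries held 0, 0, 0, 1 and 14 reads, the eggs libraries 0, 0, 1, 12 and 16, and the early libraries 0, 0, 1, 10 and 35. Differences from controls were 0.24, 0.51 and 0.63 on the log2(CPM + 0.5) scale (adjusted p = 0.635, 0.333 and 0.333, exact permutation tests), and none passed. At mid the difference was 0.46 in diencephalon and -1.16 in telencephalon, and at late it was 0.42 and -0.47 (adjusted p between 0.622 and 0.881, exact permutation tests). The telencephalon value at mid rested on male 96 and was 0.20 without it. In diencephalon mylpfb also passed the filter of the edgeR fit described next, and none of its 5 stage comparisons passed there (adjusted p between 0.273 and 0.760, quasi-likelihood test). It met that filter only through stage libraries, those of males 15, 29, 60, 77, 80 and 82, while the highest control library had 0.428 CPM. The gene entered the fit through the groups where it was high, so these p-values are not a valid test.

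Other muscle genes that the files can be matched to by name show what else the high libraries held. Of 59 names of fast muscle sarcomere genes listed for this purpose, 4 beside the myosins could be matched, and 7 further matches came from 34 names of genes for muscle calcium handling and energy supply. The names of these 11 genes come from the study's list of genes differentially expressed in paternal care or after a territorial challenge. That list rests partly on these samples, so the 11 are not an independent choice. The study called its genes by another fit, with a false discovery rate from permuted labels. The calls given here are not set against that list. The sarcomere genes with most reads were ACTC1 (4 of 4), a sarcomeric actin, tpm2, a tropomyosin that lies along actin, and TNNT3 (2 of 2), the fast troponin T that ties troponin to tropomyosin. The most abundant of the other list were ckmb and ckma, muscle creatine kinases, and atp2a1l, a calcium pump of the sarcoplasmic reticulum.

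In the telencephalon of male 96, 10 of the 11 genes had their highest level of all 40 telencephalon libraries. ACTC1 (4 of 4) reached 579 CPM against a telencephalon median of 0.560 CPM. Ckma reached 386 CPM against 0.287, ckmb 348 CPM against 0.821, and tpm2 201 CPM against 6.85. Over the 11 genes, the median gene was 64.5 times its telencephalon median, and the sum was 2026 CPM against a median library of 16.2. The exception was CKMT2 (2 of 2), the creatine kinase of muscle mitochondria, with 2 reads. This library was also the highest of its region for the sum of the connective tissue collagens col1a2 and col6a1 (335 CPM, median 46.5), and second highest for 5 cartilage genes (58.5 CPM, median 37.4) and for 7 pituitary genes (9191 CPM, median 8.39).

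Muscle genes were also raised in other libraries, without a fixed ratio to mylpfb. In the diencephalon of mid male 80, 10 of 11 genes were at least 2 times their region median, and atp2a1, the fast muscle calcium pump, was at 47.8 CPM against 3.29. In the telencephalon of control 9 a.m. male 74, all 11 were at least 2 times the median, with a sum of 233 CPM. Late male 15 had a muscle sum of 20.04 CPM in diencephalon, at the region median, although its mylpfb had the rank of 3 among 39. Conversely, the diencephalon of male 96 had the highest muscle sum of its region (327 CPM) with 8 reads of mylpfb. Mylpfb amounted to 2.85% of the muscle sum in the telencephalon of male 96, 1.63% in the diencephalon of male 80, 7.90% in that of male 15 and 0.131% in that of male 96.

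Across telencephalon libraries mylpfb was higher where the muscle sum was higher. On log2(CPM + 0.5), r was 0.81 and rho 0.48 over 40 libraries, given as a description since the high mylpfb libraries were known when the gene was chosen. It was 0.57 without male 96 and 0.70 without males 75 and 96. It was 0.58 within single-lane libraries (n = 24) and 0.86 within multiple-lane libraries (n = 16). In diencephalon r was 0.34 and rho 0.14 over 39 libraries, and r was 0.09 without males 29 and 80. Within single-lane libraries it was 0.34 (n = 24) and within multiple-lane libraries 0.69 (n = 15).

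MYH3 had reads in every library of both regions, unlike mylpfb. It had between 132 and 432 reads in diencephalon (median 235) and between 36 and 370 in telencephalon (median 66). Its lowest library in any region was therefore well above the floor of 3 counts.

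In the libraries with most mylpfb, MYH3 was within the range of the other libraries. The telencephalon of male 96 had 126 reads of MYH3 (7.60 CPM), the rank of 5 among 40 and above the region median of 3.45 CPM. The telencephalon of male 75 (2.84 CPM) was at 0.821 times the median and that of male 74 (5.24 CPM) at 1.52 times. The diencephalon libraries of males 29, 15 and 80 had 11.1, 13.5 and 18.4 CPM against a median of 11.1. The highest MYH3 levels of telencephalon lay in other libraries, in males 81 (mid, 13.9 CPM), 32 (late, 11.1 CPM) and 58 (early, 9.18 CPM), which had 4, 4 and 0 reads of mylpfb. The muscle sums of these 3 libraries were 22.9, 64.5 and 9.93 CPM.

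MYH3 showed no relation to the muscle sum that passed. In diencephalon r was 0.04 (permutation p = 0.811, adjusted 0.811; rho = 0.07, permutation p = 0.649, adjusted 0.649), and without males 10 and 32 it was 0.16. It was -0.09 within single-lane and 0.21 within multiple-lane libraries. In telencephalon r was 0.23 (permutation p = 0.143, adjusted 0.228; rho = 0.08, permutation p = 0.618, adjusted 0.649), and without males 32 and 81 it was 0.22. It was 0.18 within single-lane libraries and 0.67 within multiple-lane libraries (n = 16), where rho was 0.36 and male 96 had the highest muscle sum. No test is given for these subsets, since the high library of male 96 was known at the choice. Over all telencephalon libraries but that of male 96, r was 0.11. As deviations from the group means r was 0.06 in diencephalon and 0.31 in telencephalon (adjusted permutation p = 0.700 and 0.0806).

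MYH3 and mylpfb had no relation that passed over all libraries of a region. In diencephalon r was 0.34 (permutation p = 0.0345, adjusted 0.0691; rho = 0.23, permutation p = 0.161, adjusted 0.322). It rose to 0.41 without males 10 and 32 and was 0.20 within single-lane and 0.03 within multiple-lane libraries. In telencephalon r was 0.21 (permutation p = 0.176, adjusted 0.234; rho = 0.26, permutation p = 0.106, adjusted 0.283), and 0.26 without males 32 and 81. Within single-lane libraries it was 0.20, within multiple-lane libraries 0.72 (n = 16), and over all libraries but that of male 96 it was 0.02. No test is given for these subsets, since the high mylpfb libraries were known at the choice. As deviations from the group means, r was 0.24 in diencephalon and 0.36 in telencephalon, and 0.17 in telencephalon without male 96.

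**Figure D2:**
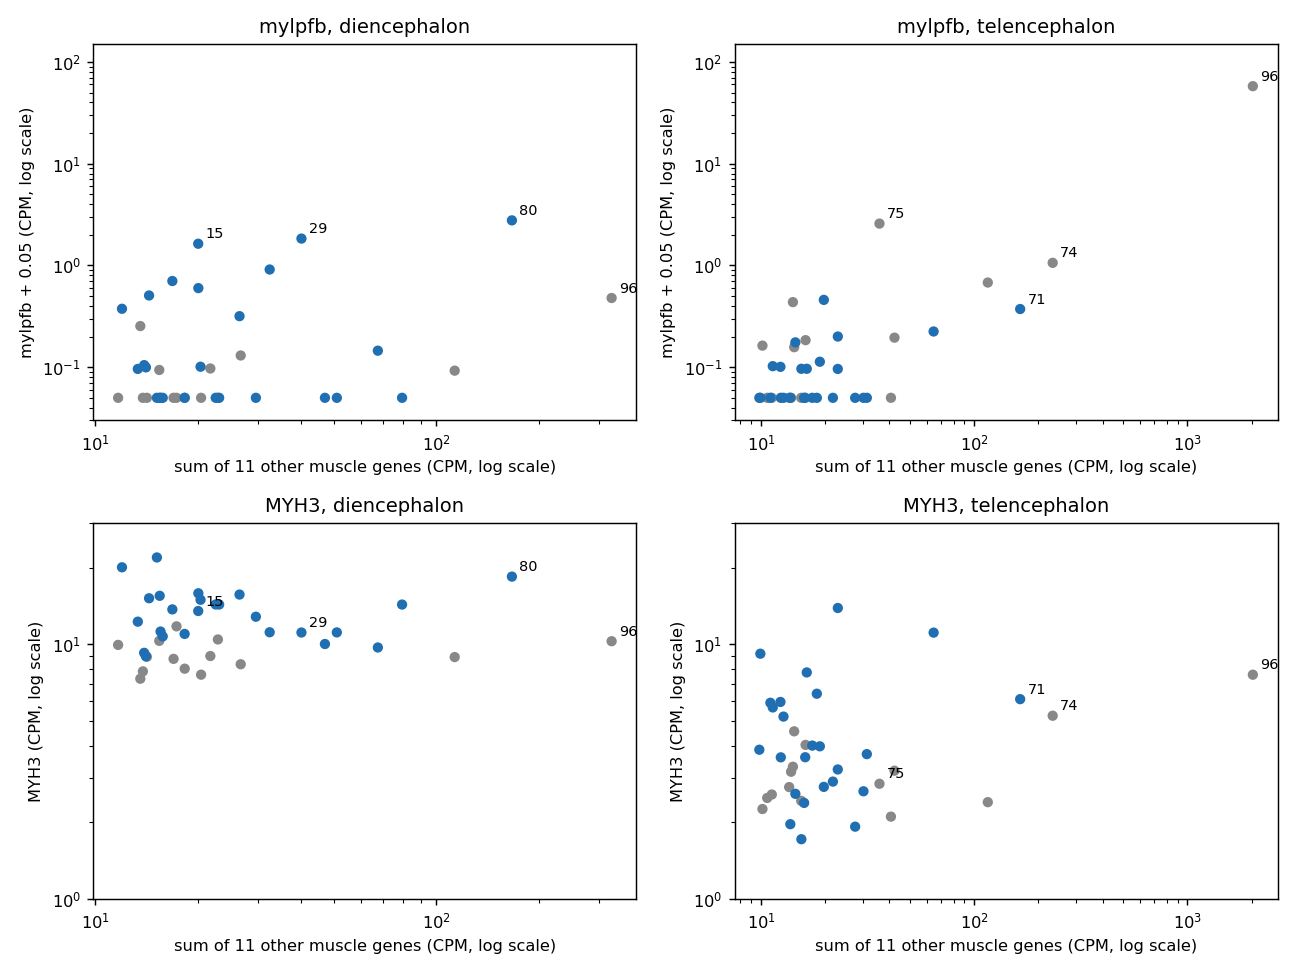
Level of mylpfb (top, CPM + 0.05) and MYH3 (bottom, CPM) against the summed level of 11 other muscle genes in each library, in diencephalon (left) and telencephalon (right), on log axes. Grey points are control libraries, blue points the 5 stages, and numbers mark males whose library has mylpfb at 1 CPM or more or a high muscle sum. In telencephalon mylpfb is higher where the muscle sum is higher, up to male 96 (57.7 CPM), while MYH3 in that library (7.60 CPM) stays below the highest libraries.

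MYH3 was higher in diencephalon than in telencephalon. The mean of all libraries was 11.9 ± 3.46 CPM in diencephalon (SD, n = 39) and 4.32 ± 2.61 CPM in telencephalon (SD, n = 40). In one edgeR fit of all libraries, with 16 groups, the difference was 1.43 ± 0.13 on the log2 scale (SE; adjusted p = 4.63e-16, quasi-likelihood test). The diencephalon stage levels enter this fit, so its p-value is not independent of the choice of MYH3. In that fit 58.5% of 18958 genes differed between the regions, and 845 genes had a larger value in favour of diencephalon. MYH3 was the higher in diencephalon in 39 of 39 males with both libraries. The ratio had a median of 3.03 and ran from 1.13 in mid male 81, the male with the highest telencephalon level, to 7.44 in egg male 88. The fit with 16 groups takes no account of the pairing of libraries by male. The same holds for the region tests of other genes below. With male as a replicate block the MYH3 difference was 1.55 ± 0.09 (SE; adjusted p = 4.68e-20, quasi-likelihood test).

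The other named myosin heavy chains did not share this order. Myh6, named after the heavy chain of cardiac atrial muscle, was lower in diencephalon (6.56 ± 2.83 CPM, SD, n = 39) than in telencephalon (13.9 ± 3.17 CPM, SD, n = 40), with a log2 difference of -1.13 ± 0.11 (SE; adjusted p = 4.49e-14, quasi-likelihood test). Myh9a, a heavy chain of non-muscle myosin II found in most cells, was at 44.7 ± 26.3 CPM and 50.4 ± 35.1 CPM and did not pass (log2 difference -0.14 ± 0.18, SE, adjusted p = 0.522). In the telencephalon of male 96, myh6 was at 12.3 CPM, 0.889 times the region median. Of the 11 muscle genes, TNNC2 (1 of 2), the fast troponin C, was higher in diencephalon (log2 difference 1.09 ± 0.29, SE, adjusted p = 0.00063). TNNT3 (2 of 2) was lower there (-1.37 ± 0.27, SE, adjusted p = 8.58e-06), and the other 9 did not pass. Without the libraries with mylpfb at 1 CPM or more, both kept their direction (1.43 and -0.89). That cut takes out the telencephalon library of male 96 (muscle sum 2026 CPM) but keeps its diencephalon library (327 CPM). A shift towards diencephalon is therefore partly built in, and these values are a description. Pygma, the muscle glycogen phosphorylase, was then at 1.01 ± 0.31 (SE). All of the 11 but TNNT3 (2 of 2) were then above 0, among them ACTC1 (4 of 4), which went from -0.26 to 0.97.

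Males differed in MYH3 in the same direction in both regions. Across 39 males, the diencephalon and telencephalon levels had r = 0.58 (permutation p = 0.00013, adjusted over 8 relations 0.00052) and rho = 0.53 (permutation p = 0.00068, adjusted 0.00544). Late male 32 was the highest in diencephalon (21.9 CPM) and second highest in telencephalon (11.1 CPM). Without males 10 and 32, r was 0.50. As deviations from the group means it was 0.56 (adjusted permutation p = 0.00056). It was 0.56 within single-lane libraries (n = 24, adjusted permutation p = 0.0393) and 0.53 within multiple-lane libraries (n = 15, adjusted permutation p = 0.0515). The libraries of a male share the animal, its handling and its dissection. The diencephalon levels were taken as used in choosing MYH3, so these p-values are not independent of the choice.

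**Figure D3:**
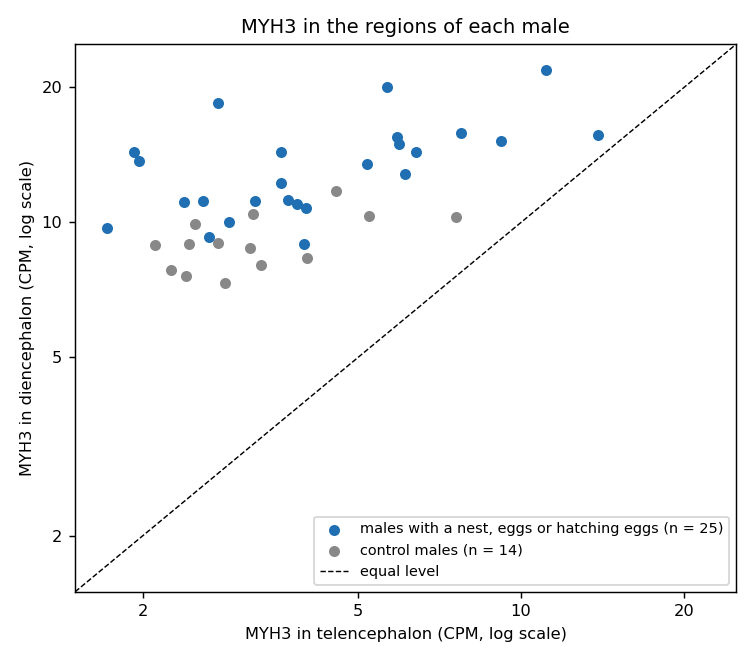
MYH3 level in diencephalon against telencephalon for the 39 males with both libraries, in CPM on log axes, with control males in grey, the other males in blue and a dashed line of equal level. Every point lies above the line, with a median ratio of 3.03, and males high in one region tend to be high in the other (r = 0.58).

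By stage in diencephalon, every stage mean of MYH3 was above every control mean. Control means were 9.63 ± 1.76 CPM at 9 a.m., 9.24 ± 1.11 CPM at 1 p.m. (n = 4) and 8.47 ± 0.69 CPM at 5 p.m. Stage means were 13.9 ± 1.70 CPM for nest, 12.6 ± 2.69 CPM for eggs, 11.9 ± 1.98 CPM for early, 13.8 ± 3.58 CPM for mid and 15.2 ± 5.54 CPM for late (all SD, n = 5 unless given). In the order of the means, from late over nest, mid, eggs and early to the 9 a.m., 1 p.m. and 5 p.m. controls, only the step from early to control 9 a.m. (2.28 CPM) was larger than the SD of both neighbours.

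Single libraries show where the groups overlapped. The late libraries were at 9.26, 11.2, 13.5, 20.1 and 21.9 CPM, all above the 5 p.m. controls at 7.33, 8.35, 8.77, 8.93 and 8.99 CPM. Of all 18609 genes tested in diencephalon, 4.88% had every late library above every 5 p.m. control library. The mid libraries were at 9.71, 10.7, 14.3, 15.7 and 18.4 CPM and the 1 p.m. controls at 7.83, 8.91, 9.94 and 10.3 CPM, so that 4 of 5 lay above all controls. Against the 9 a.m. controls at 7.60, 8.02, 10.3, 10.4 and 11.8 CPM, 4 of 5 nest libraries, 3 of 5 eggs libraries and 2 of 5 early libraries lay above all controls.

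The fitted log2 differences from controls were 0.54 ± 0.19 for nest, 0.41 ± 0.19 for eggs, 0.30 ± 0.19 for early, 0.56 ± 0.20 for mid and 0.82 ± 0.19 for late (SE). No test is given for these, because they are taken as used in choosing the gene. The edgeR test called 0.0537% of genes at nest, 0.0322% at eggs, 0% at early, 0% at mid and 2.82% at late. The late calls depended on the fit, with 206 genes called higher and 318 lower in the main fit. Without the libraries with mylpfb at 1 CPM or more they were 6 and 17. Of the late and 5 p.m. control libraries, this left out only late male 15, whose muscle sum was at the region median. In a fit of the late and 5 p.m. control groups alone they were 7 and 1. The count was 0 when the percentage of reads falling outside genes entered the fit. That percentage differed between these groups without overlap, from 47.3% to 51.2% in the late libraries and from 43.1% to 45.8% in the 5 p.m. controls. In the fit with it the MYH3 difference at late was 0.90, and its part in the MYH3 levels was not tested further. Late male 65, the only male of the stages on multiple lanes, had the lowest late value in both regions (9.26 CPM and 2.65 CPM). Diencephalon libraries on multiple lanes ranged from 7.33 to 11.8 CPM (n = 15) and those on a single lane from 8.97 to 21.9 CPM (n = 24). The part of the lane in the stage values was not tested and cannot be told apart from stage in the other males. In bulk tissue, more cells that express a gene and more RNA per cell cannot be told apart.

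Of the other muscle genes, none passed at a stage in diencephalon. The muscle sum was between 12.0 and 20.04 CPM in the late libraries and between 13.6 and 26.7 CPM in the 5 p.m. controls. In the late libraries with most MYH3, those of males 32 and 10, it was 15.2 and 12.0 CPM, and mylpfb had 0 and 7 reads. None of the 11 muscle genes passed at any stage in diencephalon by edgeR or DESeq2. At an unadjusted p under 0.05 the count was 0 at every stage by edgeR and at most 1 by DESeq2. Over all 18609 genes the edgeR count at that level was 2883 at nest, 3222 at eggs, 1170 at early, 2581 at mid and 5264 at late. By DESeq2 it ran from 1238 at early to 5351 at late, and at late DESeq2 called 469 genes higher and 626 lower. The median log2 difference of the 11 muscle genes was -0.37 at late, against -0.02 over all genes, and ranged from -0.52 at mid to 0.51 at early. Myh6 did not pass either, with 0.44 ± 0.38 at late (SE, adjusted p = 0.475, quasi-likelihood test).

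In telencephalon no stage of MYH3 passed the test. Its telencephalon levels were taken as not used in the choice, although the contrast that chose it is not recorded. Control means were 3.74 ± 1.14 CPM at 9 a.m., 3.41 ± 2.35 CPM at 1 p.m. and 3.04 ± 0.61 CPM at 5 p.m. (SD, n = 5). Stage means were 4.13 ± 1.74 CPM for nest, 4.47 ± 2.43 CPM for eggs, 4.38 ± 2.75 CPM for early, 5.75 ± 4.87 CPM for mid and 5.66 ± 3.27 CPM for late (SD, n = 5). The log2 differences were 0.15 ± 0.47 for nest, 0.25 ± 0.47 for eggs, 0.24 ± 0.47 for early, 0.74 ± 0.47 for mid and 0.91 ± 0.47 for late (SE). Their adjusted p-values were 0.918, 0.872, 0.898, 0.928 and 0.382 (quasi-likelihood test). The test called 0.0109% of 18397 genes at nest, 0.00544% at eggs and 0% at early, mid and late. Whether the regions differ in the late value was not tested.

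The order of the telencephalon means was mid, late, eggs, early, nest and then the controls at 9 a.m., 1 p.m. and 5 p.m., and no step between neighbours was larger than the SD of either. The late libraries were at 2.65, 3.71, 5.20, 5.65 and 11.1 CPM and the 5 p.m. controls at 2.43, 2.75, 2.84, 3.16 and 4.03 CPM, with 3 of 5 above all controls. The mid libraries were at 1.72, 2.76, 4.003, 6.40 and 13.9 CPM, and the 1 p.m. controls were at 2.11, 2.26, 2.49, 2.57 and 7.60 CPM. In each of these 2 groups 1 library lay far above the rest. Without male 81 the log2 difference at mid was 0.13, and without the library of male 96 it was 1.27.

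Within groups MYH3 varied more in telencephalon. The pooled SD of log2(CPM + 0.5) within groups was 0.67 in telencephalon and 0.30 in diencephalon. For myh6 the values were 0.37 and 0.58, the other way round. The highest telencephalon library had 8.08 times the MYH3 level of the lowest, against 2.99 times in diencephalon.

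**Figure D4:**
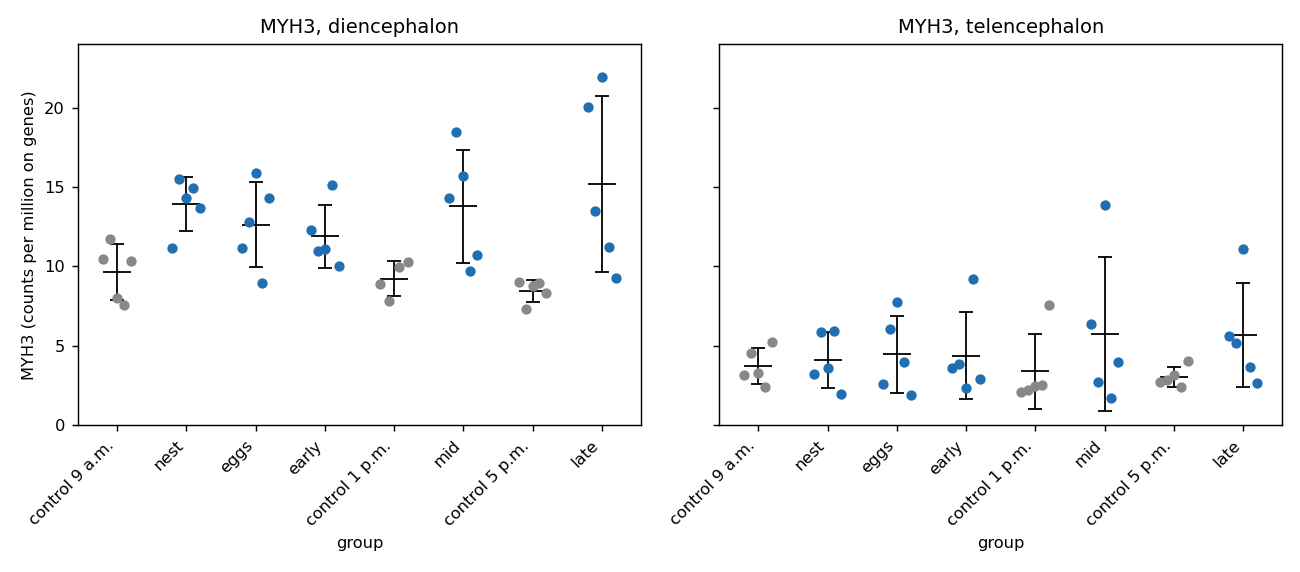
MYH3 level (CPM) in each library by group, in diencephalon (left) and telencephalon (right). Points are libraries, control groups are grey, and bars show mean and SD (n = 5, and 4 for diencephalon control 1 p.m.). Diencephalon stage means (11.9 to 15.2 CPM) lie above the control means, with no overlap of libraries only at late, and telencephalon groups overlap at every stage, with single high libraries at mid (13.9 CPM) and late (11.1 CPM).

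Time of day among the controls made no difference that passed. Between the 5 p.m. and the 9 a.m. control males, the log2 difference of MYH3 was -0.18 ± 0.19 in diencephalon (SE, adjusted p = 0.710) and -0.32 ± 0.47 in telencephalon (SE, adjusted p = 0.841, quasi-likelihood test for both). The test called 0.0161% of genes in diencephalon and 0.00544% in telencephalon.

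In telencephalon none of the 11 muscle genes passed at any stage by edgeR. At an unadjusted p under 0.05 the count was 5 at nest, 0 at eggs, 6 at early, 11 at mid and 0 at late. Over all 18397 genes the count at that level was 2656 at nest, 2097 at eggs, 2042 at early, 1024 at mid and 2577 at late. The mid count of muscle genes was 2 without the libraries with mylpfb at 1 CPM or more. DESeq2 called 2 of the 11 lower at mid. Over all 18397 genes it called 1 higher and 13 lower at mid. The median log2 difference of the 11 muscle genes was -2.01 at nest, -2.55 at early and -4.06 at mid, against between -0.02 and -0.01 over all genes. When the libraries with mylpfb at 1 CPM or more were left out, the mid value turned to 0.98 and the eggs value from -0.57 to 0.46, while the nest and early values were -1.82 and -2.36. The telencephalon libraries left out were all controls (males 74, 75 and 96), chosen on a gene that goes with the muscle sum. A rise is therefore built into this setting, and it does not test the stage values. The 9 a.m. control library of male 69, with a muscle sum of 116 CPM, stayed in.

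Genes whose pattern was most like each member were ranked by r over the libraries of a region, on log2(CPM + 0.5) deviations from group means, as a description. For mylpfb the first gene was ENSGACG00000012954 in both regions (r = 0.82 over 39 diencephalon libraries and 0.92 over 40 telencephalon libraries), which has no name in the sources used here. The only named gene among the first 5 in diencephalon was atp2a1 (r = 0.66). In telencephalon 10 of the 11 muscle genes lay in the top 1% of 18397 genes, led by pygma, the muscle glycogen phosphorylase (r = 0.86), ampd1, the AMP deaminase of muscle (r = 0.86), and tpm2 (r = 0.86). They were still 10 of 11 in the top 1% without male 96. In diencephalon 9 of 11 were in the top 10% and 2 in the top 1%. The libraries share depth and dissection, and most mylpfb values rest on 3 reads or fewer.

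For MYH3 all of the 5 most similar genes in either region lack a name here, and none is one of the 11 matched muscle genes. Names came from a list of 810 genes, against 22456 gene rows. Whether the unnamed genes are muscle genes is therefore not known here. The highest were ENSGACG00000004104 in diencephalon (r = 0.64) and ENSGACG00000019866 in telencephalon (r = 0.65), both without a name here. Among the muscle genes, TNNT3 (2 of 2) and TNNC2 (1 of 2), the fast troponin genes, ranked 40 and 80 of 18608 in diencephalon (r = 0.49 and 0.45). In telencephalon they ranked 162 and 52 of 18397 (r = 0.49 and 0.52), and 845 and 448 without male 96 (r = 0.39 and 0.44), when none of the 11 was in the top 1%. The median r over the 11 muscle genes was 0.06 in diencephalon and 0.31 in telencephalon, and 0.17 in telencephalon without male 96. ACTC1 (4 of 4), ckma, ckmb and the calcium pumps had r between 0.26 and 0.36 with MYH3 in telencephalon, and between 0.08 and 0.21 without male 96. CKMT2 (2 of 2) had -0.18.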

How the data were processed

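Both regions of each male were sequenced as single-end reads of stranded mRNA libraries. The authors aligned these to the repeat-masked stickleback genome (Ensembl release 75) with TopHat 2.0.8 and Bowtie 2.1.0, counted them with HTSeq 0.6.1 and deposited whole-number counts per gene, without normalization. Reads that fell in several genes were excluded. The rows that name no gene hold 48.4% to 57.0% of the entries of a library and were left out. Groups and males came from the labels, gene names and positions from a supplementary gene list. The members and the lists were chosen with earlier results of these data known.

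A gene entered the edgeR 4.0.16 test of a region if 5 or more libraries had 0.5 CPM or more (TMM, quasi-likelihood, all 8 groups in one fit, R 4.3.3). P-values were adjusted by Benjamini and Hochberg's method over all genes, and 0.01 was the threshold. Mylpfb was tested by exact permutation of log2(CPM + 0.5) (threshold 0.05), and the 8 relations by 100000 permutations (threshold 0.05). Male numbers pair the regions, since both libraries come from the same fish. DESeq2 1.42.0 and the other settings are given at the end. The scripts were tested on simulated data. The rule for named genes took the members, the listed genes that matched, with values for up to 3 of each list by reads, the 5 genes most like each member (only the first and named ones are printed) and libraries with mylpfb at 10 times its region median or a floor of 3 counts. Other muscle genes were named after their values were seen. Neighbouring heavy chains are not analysed here.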

Additional observations from a re-analysis of the deposited data

Results flagged for a closer look

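Among 47 groups of 4 or 5 libraries in which MYH3, mylpfb or the muscle sum varied, 14 had 1 library whose gap to the next was large for the range of the group by Dixon's criterion. For normally distributed values, chance alone meets it in about 1 of 20 groups. The criterion was applied to CPM without logs, and the highest muscle sum in telencephalon was 206 times the lowest. The rate is therefore only a rough guide for MYH3 and the muscle sum. That rate does not apply to mylpfb, which was chosen with its high libraries in view and where 1 read in a group otherwise at 0 always meets the criterion. For MYH3 these were telencephalon control 1 p.m. male 96 (7.60 CPM, next 2.57 CPM) and early male 58 (9.18 CPM, next 3.86 CPM). For mylpfb they were the telencephalon of male 96 (57.7 CPM) and of male 75 (2.53 CPM), and the diencephalon of males 96 (0.428 CPM), 74 (0.0439 CPM, a single read), 29 (1.79 CPM), 15 (1.58 CPM), 80 (2.72 CPM) and 82 (0.653 CPM). For the muscle sum they were the telencephalon of males 96 (2026 CPM), 75 (35.9 CPM) and 71 (164 CPM) and the diencephalon of nest male 33 (51.1 CPM). In every case the library stood above its group.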

How the results depend on the processing

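Of 229 alternatives other than leaving out 1 male, 220 counted as the same. For tested values this meant the same direction and side of the threshold, or the direction alone where an alternative gave no p-value. For the untested stage values of MYH3 in diencephalon it meant the same direction and a shift smaller than the pooled SD of the 2 groups. For the number of muscle genes called it meant a similar number, which was 0 in every setting but DESeq2 at mid in telencephalon. Many tested values also lay far from the threshold, so the count of 220 does not measure how firm the results are. With male as a replicate block the MYH3 difference between regions was 1.55 on the log2 scale, and it changed no call of that gene. The mylpfb difference between regions was paired by male throughout. Stages and controls share no male, so no paired analysis by stage was possible. DESeq2 called 2 muscle genes in telencephalon at mid and edgeR called 0. Over all genes there DESeq2 called 1 higher and 13 lower, and edgeR called 0. Among the relations, r of MYH3 and mylpfb in diencephalon rose to 0.41 without the 2 libraries farthest from the median. MYH3 and the muscle sum in diencephalon turned to -0.089 in single-lane libraries. In multiple-lane libraries r was 0.69 for mylpfb and the muscle sum in diencephalon. It was 0.72 there for MYH3 with mylpfb in telencephalon and 0.91 for mylpfb across regions. These values of mylpfb hold the library of male 96 and are given without a test. The multiple-lane r of MYH3 with the muscle sum in telencephalon (0.67, rho = 0.36) also holds male 96 and is given without a test. For MYH3 across regions r no longer passed in those libraries (0.53). The causes were not tested. The edgeR value of mylpfb at mid in diencephalon turned to -0.27 without the libraries at 1 CPM or more, and ranged from -0.27 (without male 80) to 4.88 when 1 male was left out. Leaving out 1 male, MYH3 in telencephalon ranged from -0.010 (without male 54, and also negative without male 78) to 0.33 at nest, from -0.032 (without male 77) to 0.44 at eggs and from -0.22 (without male 58) to 0.40 at early. MYH3 at late in diencephalon ranged from 0.66 to 0.96. The permutation values of mylpfb ranged from -0.035 (without male 80) to 0.67 at mid in diencephalon, and in telencephalon from -0.94 to -0.61 at nest, from -0.99 to -0.66 at early, from -1.52 to 0.20 (without male 96) at mid and from -0.62 to 0.029 (without male 75) at late. The relations without male 96 were chosen after the data were seen. Mylpfb is limited by its few reads.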
